A study of Mus musculus with 6 samples.

Results

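The transcription factors that drive epithelial-mesenchymal transition (EMT) were examined in Lewis lung carcinoma (LLC) cells sorted from mouse tumours. The 10 genes were taken by their symbols in the deposited gene tables: Snai1, Snai2, Snai3, Twist1, Twist2, Zeb1, Zeb2, Prrx1, Foxc2 and Sox9. They are 10 of 18182 genes listed, and 9 of them were among the 13353 genes with enough counts to be tested. LLC is a single mouse lung cancer cell line, here carrying red fluorescent protein (LLC-RFP). The cells were injected under the skin of wild type C57BL/6 mice, either alone (LLC alone, 3 libraries) or together with bone marrow-derived mesenchymal stem cells (LLC with BMSCs, 3 libraries). Red fluorescent cells were then sorted by flow cytometry from the primary tumours and their RNA was sequenced. The methods give female mice 6 weeks old for allograft tumour growth, without naming the sequenced mice. Whether several tumours were pooled into a library is not given in the sources used here, so that the p values measure the spread between these libraries, which may be technical.

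EMT is the programme by which epithelial cells give up their junctions and acquire mesenchymal features such as motility and matrix production. SNAIL, TWIST, ZEB and PRRX factors are its best known regulators. SNAIL and ZEB proteins are zinc-finger repressors that bind E-box sequences in genes such as Cdh1, which encodes E-cadherin. TWIST proteins are basic helix-loop-helix factors that act as dimers, PRRX1 is a homeobox factor of limb and craniofacial mesenchyme, FOXC2 is a forkhead factor and SOX9 is best known as the regulator of cartilage. Several of these factors are also normal products of mesenchymal cells, ZEB2 is present in many leukocytes, and in cancer cells the factors are often produced in different combinations.

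Before the values, the upstream sequences of 3 factors with lower levels in LLC with BMSCs are given, to show whether an E-box of the kind bound by SNAIL and ZEB proteins lies directly ahead of their start sites. Each is the 250 bases before a RefSeq transcription start in build GRCm38.p6, written 5′ to 3′ on the gene's own strand, with any CACCTG, read on either strand, in capitals. The windows are chr2:167537945-167538194 (plus strand) for Snai1, chr12:33957421-33957670 (plus strand) for Twist1 and chr1:91801211-91801460 (plus strand) for Twist2.
Snai1: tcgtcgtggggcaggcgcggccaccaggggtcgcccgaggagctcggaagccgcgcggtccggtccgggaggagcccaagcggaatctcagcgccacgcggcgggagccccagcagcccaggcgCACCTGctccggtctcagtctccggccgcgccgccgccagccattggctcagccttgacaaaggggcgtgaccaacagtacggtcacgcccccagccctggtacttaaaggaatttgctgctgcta
Twist1: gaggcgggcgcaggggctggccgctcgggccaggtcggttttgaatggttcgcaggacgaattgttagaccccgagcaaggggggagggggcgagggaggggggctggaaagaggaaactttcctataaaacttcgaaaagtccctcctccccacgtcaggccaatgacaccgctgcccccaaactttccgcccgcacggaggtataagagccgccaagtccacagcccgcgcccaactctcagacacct
Twist2: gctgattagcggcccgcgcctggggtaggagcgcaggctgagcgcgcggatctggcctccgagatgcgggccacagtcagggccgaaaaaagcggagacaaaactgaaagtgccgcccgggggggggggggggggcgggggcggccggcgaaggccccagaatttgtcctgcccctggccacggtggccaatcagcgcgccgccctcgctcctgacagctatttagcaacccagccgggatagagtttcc

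The Snai1 window held 1 CACCTG, starting at position -126 from the start site, and neither TWIST window held one. The same 6 letters were present in 17.2% of the 250-base windows of 32851 RefSeq promoters. A second search, for TTCNNNGAA, the general letters of a STAT site, found none in these 3 windows, against 7.02% of all windows. Of the other factors, Prrx1 and Zeb2 had promoter entries. The Prrx1 window held neither motif, and 2 overlapping windows of the 4 for Zeb2 held the same single TTCNNNGAA. Such matches describe letters only.

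The estimated counts on genes summed to between 33476347 and 46189113 per library. LLC alone replicate 3 stood apart from the other 2 libraries of its group in a way that followed transcript length. Its median deviation from the mean of all 6 libraries was 0.30 (log2) in the shortest quintile of tested genes by length and -0.38 in the longest. Between the groups the median change (log2 of LLC with BMSCs over LLC alone) went from -0.28 in the shortest quintile to 0.26 in the longest, while that of all tested genes was 0.01. Each factor is therefore given also without LLC alone replicate 3 and after removal of the trend over length. Among the tested genes, edgeR's quasi-likelihood test at a Benjamini-Hochberg adjusted p under 0.05 called 62.9%, with 31.5% higher and 31.3% lower in LLC with BMSCs.

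Of the 9 factors tested, 3 were called higher (Zeb2, Prrx1 and Sox9), 4 lower (Snai1, Snai2, Twist1 and Twist2) and 2 were not called (Zeb1 and Foxc2). In 8 of the 9, the 3 libraries of one group lay wholly above the 3 of the other, as did 70.6% of all tested genes, so that such separation was common in these data. Under a stricter rule (adjusted p below 0.001 and a log2 change of 1 or more in size), 0 factors were called higher, against 6.81% of tested genes, and 2 lower (Snai2 and Twist2), against 5.41%. The median change of the 9 factors was 0.05 (log2). The factors thus moved in opposite directions, and the sum of their FPKM values (fragments divided by transcript length and by sequencing depth, a level that can be compared between genes) was 268.11, 261.84 and 293.87 in LLC alone and 184.69, 176.66 and 177.50 in LLC with BMSCs. This lower FPKM sum lay mainly in Twist2 and Snai2. Counts scaled to the library total (CPM) are not divided by length, and their sum differed less. It was 605 to 619 CPM in LLC alone and 541 to 559 CPM in LLC with BMSCs.

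**Figure D1:**
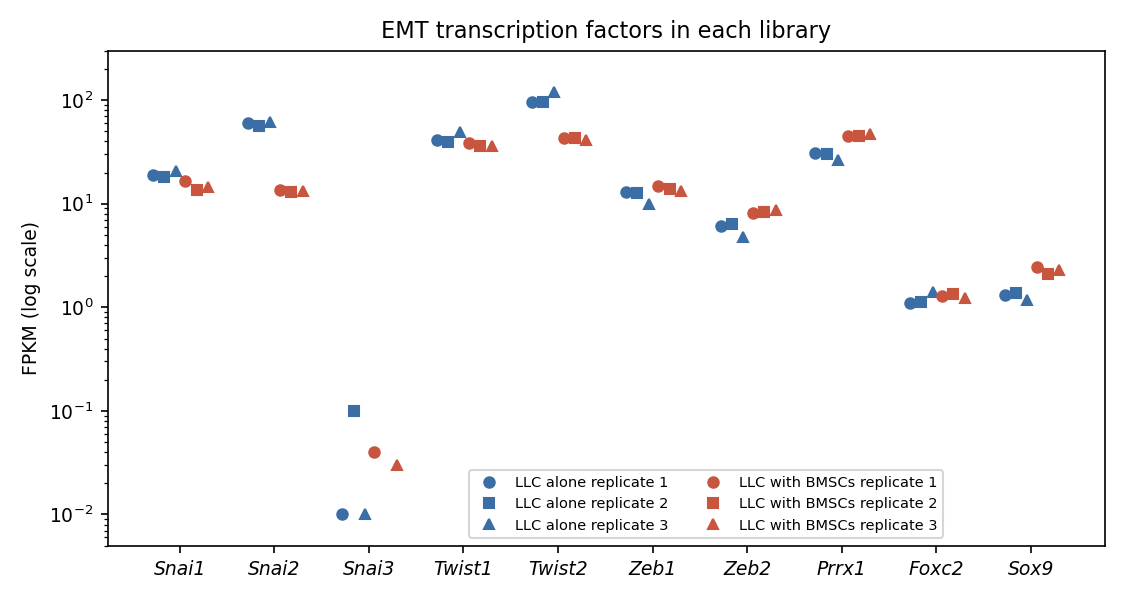
FPKM of the 10 factors (log axis) in each of the 6 libraries, LLC alone in blue and LLC with BMSCs in red, with 1 symbol per replicate number; a value of 0, for Snai3 in LLC with BMSCs replicate 2, is not drawn. Snai2 and Twist2 lie lower and Prrx1, Zeb2 and Sox9 higher in every LLC with BMSCs library than in any LLC alone library.

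Of the tested factors, the SNAIL gene Snai2 had the largest change. Snai2, which encodes Slug (NCBI gene 20583, chr16:14705852-14709385 in GRCm38, plus strand), had 60.13, 56.84 and 61.11 FPKM in LLC alone and 13.72, 12.91 and 13.27 FPKM in LLC with BMSCs. The groups were far apart and each was narrow. The fitted log2 fold change was -2.18 (SE 0.064, adjusted p = 2.92e-07, edgeR), a level 4.53-fold lower with BMSCs. It was -2.15 without LLC alone replicate 3 and -2.08 with the length trend removed, and 1.97% of tested genes had a lower fitted change.

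Snai1, which encodes Snail (NCBI gene 20613, chr2:167538195-167542814 in GRCm38, plus strand), had 18.96, 18.17 and 20.74 FPKM in LLC alone and 16.59, 13.51 and 14.44 FPKM in LLC with BMSCs. The lowest LLC alone library stood only a little above the highest LLC with BMSCs library. The log2 fold change was -0.40 (SE 0.094, adjusted p = 0.0068, edgeR). It was -0.34 without LLC alone replicate 3 and -0.23 with the length trend removed (adjusted p = 0.032, edgeR), and the call held in all 18 alternatives. Snai3, the least studied SNAIL gene, had 1, 5 and 1 counts in LLC alone and 3, 0 and 2 counts in LLC with BMSCs. It was too low to be tested, and a count of 0 in LLC with BMSCs replicate 2 allows up to 0.0681 CPM (counts scaled to the library total).

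Twist2 (NCBI gene 13345, chr1:91801461-91848028 in GRCm38, plus strand) was the most abundant factor in LLC alone, at 95.67, 95.62 and 119.29 FPKM, and had 43.40, 43.08 and 41.40 FPKM in LLC with BMSCs. LLC alone replicate 3 was the highest library. Its fitted log2 fold change was -1.30 (SE 0.098, adjusted p = 2.35e-05, edgeR), which is 2.47-fold lower. Without LLC alone replicate 3 it was -1.18, and with the length trend removed -1.07, and the call held in all 18 alternatives. Of tested genes, 4.81% had a lower fitted change. Exons of Twist2 overlap those of the antisense gene Gm29100. Whether the counting used the strand is not given in the sources used here, so that reads of the overlap could not be divided between these genes.

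Twist1 (NCBI gene 22160, chr12:33957671-33959829 in GRCm38, plus strand) had 41.09, 39.73 and 48.78 FPKM in LLC alone and 38.68, 36.03 and 35.74 FPKM in LLC with BMSCs. The gap between the groups, from 38.68 to 39.73 FPKM, was smaller than the spread within either. Its log2 fold change of -0.25 (SE 0.091) passed the threshold narrowly, with an adjusted p of 0.042 by edgeR. The call was lost in 12 of 18 alternatives, among them the removal of the length trend (-0.09, adjusted p = 0.21) and the fits without LLC alone replicate 1 (adjusted p = 0.054) and without LLC with BMSCs replicate 1, 2 or 3 (adjusted p = 0.055, 0.12 and 0.13). Without LLC alone replicate 3 the value was -0.15 (adjusted p = 0.034).

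The members of a family thus differed in their balance as well as in level. The ratio of Snai2 to Snai1 FPKM was 3.17, 3.13 and 2.95 in LLC alone and 0.83, 0.96 and 0.92 in LLC with BMSCs, with Slug transcripts in excess in the first group and not in the second. The ratio of Twist2 to Twist1 was 2.33, 2.41 and 2.45 in LLC alone and 1.12, 1.20 and 1.16 in LLC with BMSCs. For Zeb2 to Zeb1 it was 0.48, 0.50 and 0.48 against 0.56, 0.59 and 0.66. None of the 3 ratios overlapped between groups, where 70.6% of single tested genes did not overlap in FPKM either. Each exact two-sided permutation test gave p = 0.1, the smallest that 3 libraries against 3 can give. Over the 3 ratios, the difference in mean log2 ratio was -1.78, -1.05 and 0.31. Without LLC alone replicate 3 it was -1.81, -1.03 and 0.30. The ratios were not corrected for the trend over length. With that trend removed, the fitted log2 fold changes were -2.08 for Snai2 and -0.23 for Snai1. They were -1.07 for Twist2 and -0.09 for Twist1, and 0.21 for Zeb2 and 0.01 for Zeb1.

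**Figure D2:**
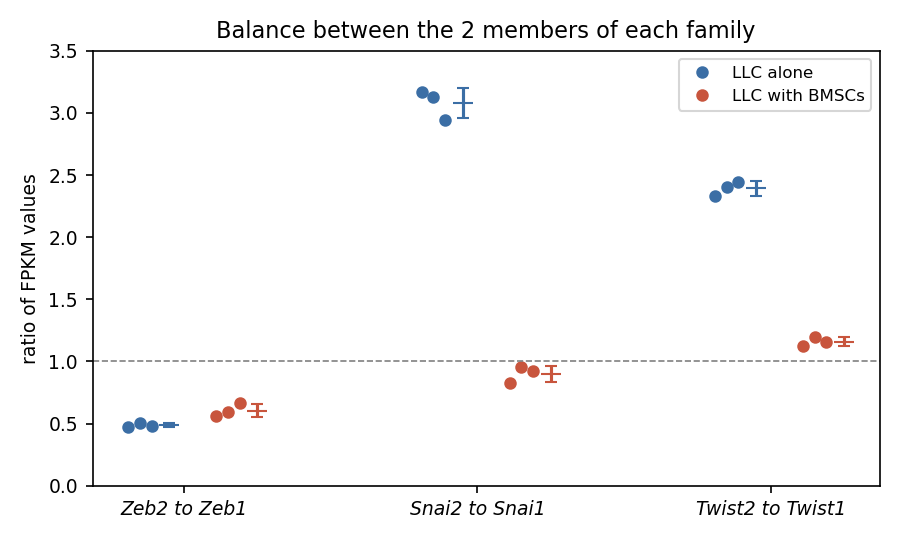
Ratio of FPKM values within the ZEB, SNAIL and TWIST families, LLC alone in blue and LLC with BMSCs in red; points are single libraries, bars the mean and SD of 3 libraries, and the dashed line a ratio of 1. The SNAIL ratio goes from a mean of 3.08 to 0.90 and the TWIST ratio from 2.39 to 1.16, while the ZEB ratio goes from 0.49 to 0.60.

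The ZEB factors were higher in LLC with BMSCs or not called. Zeb2 (NCBI gene 24136, chr2:44983632-45117395 in GRCm38, minus strand) encodes a transcriptional repressor present in neural crest and blood cells. Zeb2 had 6.14, 6.32 and 4.75 FPKM in LLC alone and 8.22, 8.31 and 8.75 FPKM in LLC with BMSCs. LLC alone replicate 3 was the lowest library. The log2 fold change was 0.54 (SE 0.10, adjusted p = 0.0028, edgeR), and the call held in all 18 alternatives. It was 0.42 without LLC alone replicate 3 and 0.21 with the length trend removed. Zeb2 has one of the longest transcripts, its estimated counts were not whole in any of the 6 libraries, and its exons overlap those of Zeb2os and Gm27761 on the other strand and of Mir5129 on its own.

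Zeb1 (NCBI gene 21417), which like Zeb2 represses Cdh1, had 12.91, 12.56 and 9.91 FPKM in LLC alone and 14.74, 13.97 and 13.23 FPKM in LLC with BMSCs. The groups did not overlap, but LLC alone replicate 3 held much of the distance. The log2 fold change of 0.23 (SE 0.10, 95% interval 0.02 to 0.43 by the normal approximation) did not pass the threshold (adjusted p = 0.092, edgeR). It was 0.12 without LLC alone replicate 3 and 0.01 with the length trend removed. Exons of the antisense gene Gm10125 overlap Zeb1.

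Prrx1 (NCBI gene 18933, chr1:163245119-163313710 in GRCm38, minus strand) had 30.78, 30.00 and 26.71 FPKM in LLC alone and 45.55, 45.42 and 47.13 FPKM in LLC with BMSCs. All 3 libraries with BMSCs were well above the rest. The fit gave a log2 fold change of 0.65 (SE 0.066, adjusted p = 0.0001, edgeR), or 1.57-fold higher. It was 0.60 without LLC alone replicate 3 and 0.49 with the length trend removed, and the call held in all 18 alternatives. A higher fitted change was seen in 14.7% of tested genes.

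The tables resolve 3 Prrx1 transcripts. NM_175686, which encodes 217 residues, took 59.0% ± 1.4 (SD, n = 3) of the gene's FPKM in LLC alone and 67.9% ± 1.8 in LLC with BMSCs. Its FPKM was 18.49, 17.20 and 15.88 in LLC alone and 30.09, 31.63 and 32.07 in LLC with BMSCs. NM_001025570, with 200 residues, took 20.96% ± 1.28 and 16.4% ± 0.45, and NM_011127, with 245 residues, took 20.1% ± 2.1 and 15.7% ± 2.1. The higher Prrx1 level lay mainly in the first transcript. Transcript shares were estimated by the authors from short reads and were not tested here. Zeb2 had 2 transcripts, both encoding 1215 residues, and NM_001289521 took 87.2% ± 4.4 in LLC alone and 87.4% in LLC with BMSCs.

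Sox9 (NCBI gene 20682, chr11:112782224-112787760 in GRCm38, plus strand) was low in all libraries, at 1.32, 1.37 and 1.17 FPKM in LLC alone and 2.47, 2.09 and 2.29 FPKM in LLC with BMSCs. Every library with BMSCs was above 2 FPKM and every LLC alone library below 1.4 FPKM. Its log2 fold change of 0.81 (SE 0.10, adjusted p = 0.00031, edgeR) was 0.75 without LLC alone replicate 3 and 0.71 with the length trend removed, and the call held in all 18 alternatives. A higher fitted change was seen in 11.1% of tested genes. Foxc2 (NCBI gene 14234, chr8:121116171-121118895 in GRCm38, plus strand) had 1.10, 1.13 and 1.40 FPKM in LLC alone and 1.28, 1.34 and 1.22 FPKM in LLC with BMSCs. These ranges overlapped. Its log2 fold change was 0.05 (SE 0.13, 95% interval -0.19 to 0.30 by the normal approximation, adjusted p = 0.72, edgeR), so that the values allow a change of either sign. It was 0.19 without LLC alone replicate 3 (adjusted p = 0.18, edgeR) and 0.07 with the length trend removed (adjusted p = 0.61, edgeR).

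**Figure D3:**
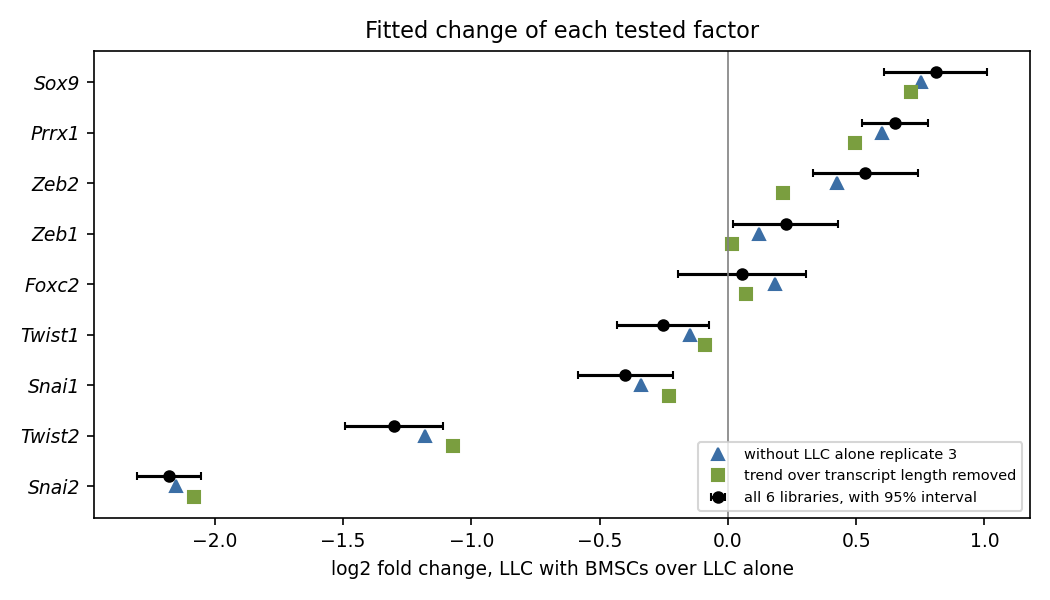
Fitted log2 fold change (LLC with BMSCs over LLC alone) of the 9 tested factors. Black points are the fit on all 6 libraries with its 95% interval by the normal approximation. Blue triangles are the fit without LLC alone replicate 3 and green squares the fit with the trend over transcript length removed. Snai2 at -2.18 and Twist2 at -1.30 stay far below 0 in all 3 fits, and Zeb1 goes from 0.23 to 0.01.

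The order of the factors by level was not the same in both groups. In LLC alone it ran Twist2, Snai2, Twist1, Prrx1, Snai1, Zeb1, Zeb2, Sox9, Foxc2 and Snai3, and among neighbours only Sox9 and Foxc2 overlapped in range. In LLC with BMSCs Prrx1 came first, at 46.0 ± 0.95 FPKM (SD, n = 3), followed by Twist2 (42.6 ± 1.1 FPKM) and Twist1 (36.8 ± 1.6 FPKM). Snai1, Zeb1 and Snai2 came next with ranges that overlapped between neighbours, at 14.8 ± 1.6, 14.0 ± 0.76 and 13.3 ± 0.41 FPKM. Of the summed FPKM of the 10 factors, Twist2 took 37.6% ± 2.6 in LLC alone and 23.7% ± 0.57 in LLC with BMSCs. Snai2 took 21.6% ± 0.82 and 7.4% ± 0.087, and Prrx1 took 10.7% ± 1.4 and 25.6% ± 0.95. The order and shares were not corrected for the trend over length. The LLC with BMSCs libraries had median deviations (log2) of -0.19, -0.08 and -0.10 in the length quintile of Twist2. In that of Prrx1 they were 0.08, 0.05 and 0.06. Whether Prrx1 would stay first without the trend was not tested.

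The direction of the factors went along with transcript length. Twist2 lay in the shortest quintile of tested genes by deposited length, Snai1, Snai2 and Twist1 in the second, Foxc2 in the middle, Prrx1 and Sox9 in the fourth and Zeb1 and Zeb2 in the longest. From the shortest to the longest quintile the share of genes called higher went from 14.5% to 45.6% and the share called lower from 46.5% to 14.4%. With the trend removed, 3 factors were called higher and 3 lower, Twist1 being the one lost. Of all 13353 tested genes, 4758 were called higher and 4573 lower in that fit. Snai2, Twist2, Prrx1 and Sox9 lay well outside the medians of their quintiles, whereas Twist1 and Zeb1 lay near them. What gave rise to the trend was not tested.

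**Figure D4:**
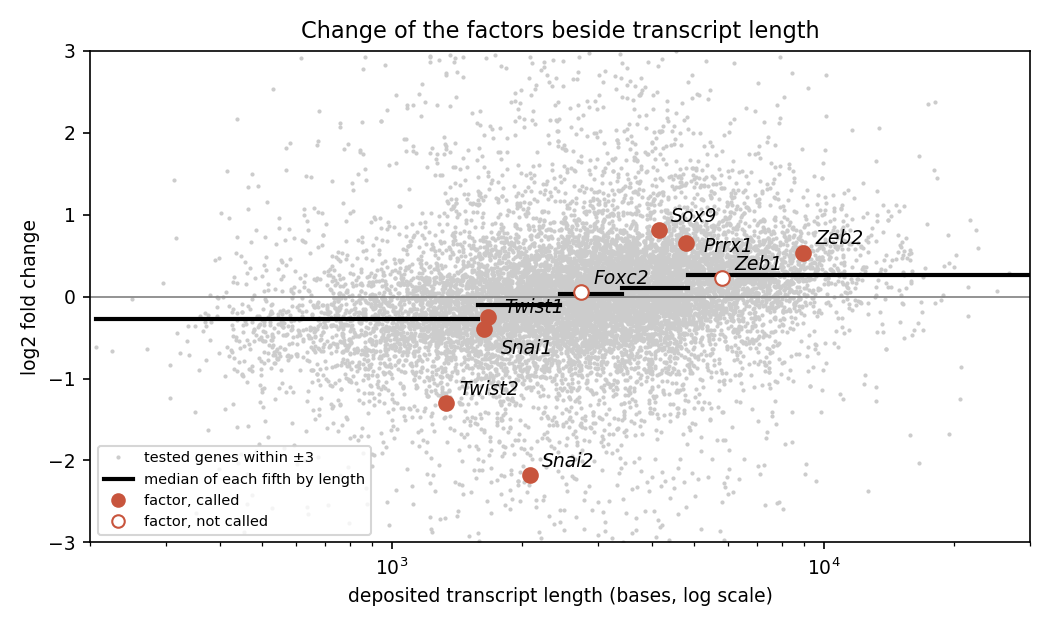
Log2 fold change (LLC with BMSCs over LLC alone) against deposited transcript length (log axis) for tested genes within 3 log2 units of 0 (grey), with the median of each quintile by length (black lines) and the 9 tested factors (filled where called, open where not). The medians go from -0.28 to 0.26, Twist1 and Zeb1 lie near them, and Snai2, Twist2, Prrx1 and Sox9 lie away from them.

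The close relatives of the factors were mostly silent. Of 6 genes, 2 were tested and both were called lower, against 31.3% of all tested genes. Prrx2, the sister homeobox gene of Prrx1, had 4.33, 4.54 and 5.50 FPKM in LLC alone and 0.44, 0.42 and 0.53 FPKM in LLC with BMSCs (log2 fold change -3.39, SE 0.17, adjusted p = 2.77e-06, edgeR), the opposite direction to Prrx1. Foxc1, the relative of Foxc2, had 2.34 ± 0.31 and 1.84 ± 0.090 FPKM (log2 fold change -0.37, adjusted p = 0.023, edgeR), a call that 13 of 18 alternatives kept.

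A list of dimer partners of TWIST, ID inhibitors and the SOX9 partners Sox5 and Sox6 included 3 genes with large falls. The ID proteins are helix-loop-helix proteins without a DNA-binding region that take up the E-proteins TWIST needs as partners. Id3 had 212.0, 214.1 and 280.6 FPKM in LLC alone and 20.56, 22.87 and 24.57 FPKM in LLC with BMSCs (log2 fold change -3.40, SE 0.13). Id1 went from a mean of 98.8 to 11.7 FPKM (log2 fold change -3.11) and Id2 from 123.1 to 19.1 FPKM (log2 fold change -2.71). All 3 were called lower in every alternative, with adjusted p values of 1.02e-06, 1.21e-06 and 1.11e-06 by edgeR. Of the E-proteins, Tcf3 rose slightly (log2 fold change 0.22, adjusted p = 0.013, edgeR), while Tcf4 and Tcf12 had log2 fold changes of -0.14 and -0.07 and were not called. Sox5, at 0.25 and 0.24 FPKM, was not called either (log2 fold change -0.08), and Sox6 had too few counts. In all, 1 of 7 tested genes of this list was called higher and 3 lower (median -0.14, log2), against 31.5% and 31.3% of all tested genes. Without LLC alone replicate 3, 5 were called lower, and with the length trend removed 6, Sox5 among them (-0.35, adjusted p = 0.044, edgeR). Over all tested genes, those fits called 4539 of 13541 and 4573 of 13353 lower, against 4183 of 13353 in the main fit.

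Signals that induce the factors were mixed, with 11 of 21 tested genes called higher and 5 lower (median 0.20, log2). The shares of all tested genes were 31.5% and 31.3%. Jag1, a Notch ligand, rose from 0.34 to 0.85 FPKM (log2 fold change 1.29, adjusted p = 0.00016, edgeR) and its receptor Notch1 from 0.56 to 0.96 FPKM (log2 fold change 0.75, adjusted p = 0.0035, edgeR). Stat3, the transcription factor downstream of IL-6 type cytokines, rose from 11.3 ± 0.84 to 26.8 ± 0.82 FPKM (log2 fold change 1.22, adjusted p = 5.88e-06, edgeR), and Nfkb1, an NF-kB subunit, from 30.1 to 66.7 FPKM (log2 fold change 1.13, adjusted p = 9.40e-06, edgeR). Ctnnb1, which encodes beta-catenin and was the most abundant gene of the list, fell from 319.8 ± 6.2 to 236.1 ± 2.1 FPKM (log2 fold change -0.46, adjusted p = 0.00015, edgeR). Without LLC alone replicate 3, 11 were called higher and 8 lower, and with the length trend removed 10 were called each way. Of all tested genes, the first fit called 4736 of 13541 higher and 4539 lower, and the second 4758 of 13353 and 4573.

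Corepressors and chromatin partners of the SNAIL and ZEB factors showed 5 of 15 called higher and 4 lower (median log2 change 0.09), near the shares of all tested genes. Sin3a, the scaffold of a histone deacetylase complex, rose by a log2 fold change of 0.80 (adjusted p = 0.00028, edgeR). Ajuba, a LIM protein that links SNAIL to its corepressors, fell by 0.51 on the log2 scale (adjusted p = 0.00031, edgeR). Suz12, a Polycomb subunit, and Smarca4, a chromatin remodelling ATPase, each rose by a log2 fold change of 0.44. Hdac1 was the most abundant, at 104.5 and 99.2 FPKM, and was not called (log2 fold change -0.10).

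Among enzymes that set the stability of SNAIL-family proteins, 8 of 17 were called higher and 1 lower (median 0.20, log2). Of all tested genes, 31.5% were called higher and 31.3% lower. The ubiquitin ligase subunits Fbxl14, Fbxl5 and Fbxw7 rose by log2 fold changes of 0.53, 0.44 and 0.40, and the kinase gene Csnk1a1 by 0.44. Psmd14, which encodes a proteasomal deubiquitinase, fell from 138.9 to 108.5 FPKM (log2 fold change -0.38, adjusted p = 0.0025, edgeR). With the length trend removed, 6 were called higher and 5 lower, and without LLC alone replicate 3, 8 and 3. Of all tested genes, the first fit called 4758 of 13353 higher and 4573 lower, and the second 4736 of 13541 and 4539. Protein stability itself was not measured.

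**Figure D5:**
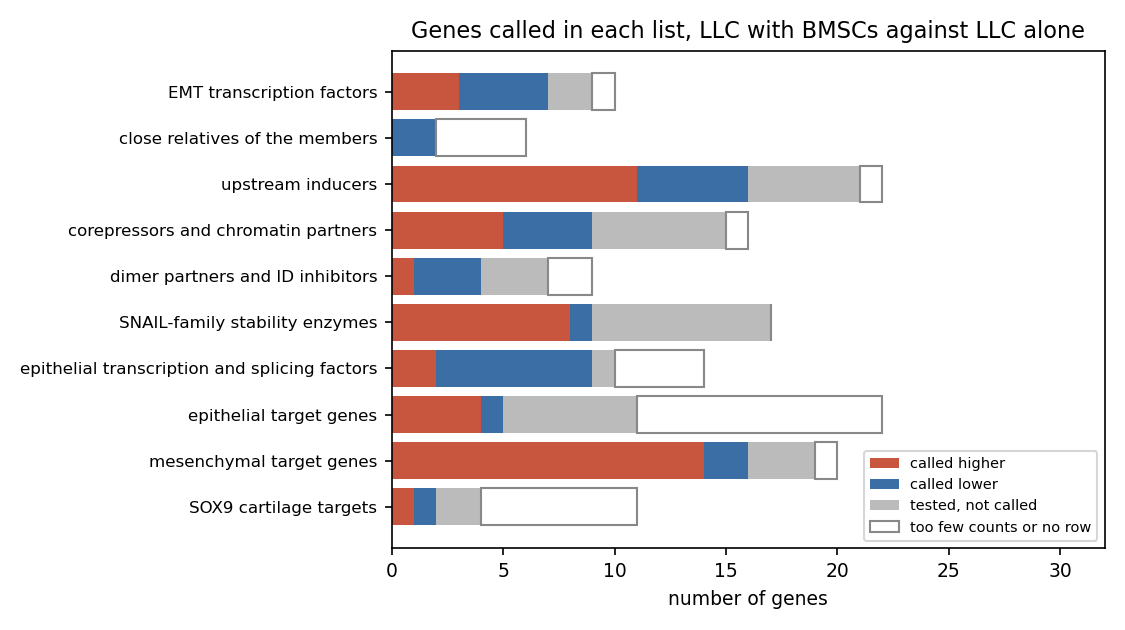
Number of genes in each list called higher (red), called lower (blue), tested and not called (grey) or with too few counts or no row (white) in LLC with BMSCs against LLC alone. The EMT factors hold 3 higher and 4 lower calls, and the mesenchymal target genes 14 higher and 2 lower.

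Genes that oppose the EMT factors were low. Of 10 tested epithelial transcription and splicing factors, 7 were called lower and 2 higher (median -0.85, log2), against 31.3% and 31.5% of all tested genes. Klf4, which encodes a zinc-finger factor of epithelial barriers, fell from 3.58 to 1.29 FPKM (log2 fold change -1.49, adjusted p = 1.45e-05, edgeR), Elf3 from 3.33 to 2.37 FPKM (log2 fold change -0.51, adjusted p = 0.0021, edgeR) and Klf5 from 3.74 to 2.58 FPKM (log2 fold change -0.55, adjusted p = 0.026, edgeR). The call of Klf5 was kept in 11 of 18 alternatives and was lost with the length trend removed (adjusted p = 0.095, edgeR). By limma on log2(FPKM + 1), 4 were called lower and 0 higher among genes that reached 1 FPKM in at least 3 libraries. Without that filter 6 were called lower and 2 higher. Of all genes in these fits, 3450 of 11010 were called lower and 3579 higher with the filter, and 4130 of 18182 and 4407 without it.

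Epithelial targets were mostly near 0 in both groups. Cdh1, the classical target that SNAIL and ZEB proteins repress, had 5, 2 and 0 counts in LLC alone and 3, 4 and 1 counts in LLC with BMSCs, and was too low to be tested. Of 22 epithelial targets, 11 were tested. Of these, 4 were called higher and 1 lower (median log2 change 0.19), against 31.5% and 31.3% of all tested genes. Under the stricter rule 3 were called higher, against 6.81% of tested genes. The exception in level was Krt8, a simple epithelial keratin, at 90.3, 93.7 and 101.9 FPKM in LLC alone and 108.0, 113.3 and 108.8 FPKM in LLC with BMSCs (log2 fold change 0.19, adjusted p = 0.037, edgeR), a call that 10 of 18 alternatives kept.

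Mesenchymal targets included many that rose, with 14 of 19 called higher and 2 lower (median 1.26, log2), against 31.5% and 31.3% of all tested genes. Vim, which encodes vimentin, had 888.5, 840.2 and 931.3 FPKM in LLC alone and 830.5, 769.5 and 774.7 FPKM in LLC with BMSCs (log2 fold change -0.18, adjusted p = 0.038, edgeR). That call was kept in 7 of 18 alternatives, and the value was -0.05 with the length trend removed. Cdh2, which encodes N-cadherin, had no counts in LLC alone and 43, 48 and 46 counts in LLC with BMSCs, at least 14.7-fold higher against a floor of 3 counts per library. Its level was still low, at 0.22 ± 0.015 FPKM. Fn1, which encodes fibronectin, had 45.8, 47.4 and 27.6 FPKM in LLC alone and 61.0, 50.5 and 51.4 FPKM in LLC with BMSCs, and was not called (log2 fold change 0.42, adjusted p = 0.091, edgeR). Without LLC alone replicate 3, its lowest library, Fn1 was called at a log2 fold change of 0.21 (adjusted p = 0.042, edgeR). The most abundant, S100a4, had 1773 ± 305 and 1292 ± 111 FPKM (log2 fold change -0.48, adjusted p = 0.011, edgeR), and -0.06 (adjusted p = 0.18) with the length trend removed.

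Large rises in this list were seen in genes of the matrix. Lox, a collagen cross-linking enzyme, had 5, 4 and 2 counts in LLC alone and 676, 705 and 670 counts in LLC with BMSCs. Col1a1 had 2, 4 and 4 counts against 586, 499 and 477 counts. Tnc, an extracellular glycoprotein, rose from 0.070 to 1.16 FPKM (log2 fold change 4.14) and Mmp2, a gelatinase, from 1.71 to 8.62 FPKM (log2 fold change 2.32). Of the cartilage genes that SOX9 activates, 4 of 11 were tested, with 1 called higher and 1 lower (median log2 change 0.42). The shares of all tested genes were 31.5% and 31.3%. Col11a2 fell from 1.20 to 0.58 FPKM (log2 fold change -1.06, adjusted p = 4.38e-05, edgeR).

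Markers of other cells were counted in the same way. Their lists were not independent of those above, since for example Col3a1 is also a mesenchymal target and Krt8 also an epithelial target. The counts of marker calls stand beside 31.5% of all tested genes called higher and 31.3% lower. All 11 tested genes of 14 BMSC and fibroblast markers were called higher, their summed level going from 366 to 431 CPM in LLC alone to 824 to 869 in LLC with BMSCs, while Thy1, Fap and Cxcl12 stayed at or under 0.10 FPKM. Col3a1 made up much of this sum, at 43.1, 43.6 and 36.8 FPKM in LLC alone and 101.7, 99.4 and 99.0 FPKM in LLC with BMSCs. Mesenchymal cells themselves produce Prrx1, Zeb2, Snai2 and Twist factors, of which Prrx1 and Zeb2 were called higher here and Snai2, Twist1 and Twist2 lower. All 7 tested neutrophil markers were called higher (0.47 to 0.79 against 21.2 to 24.0 CPM). Of 7 tested macrophage markers, 6 were called higher and 1 lower (9.80 to 11.7 against 21.3 to 21.4 CPM). The leukocyte gene Ptprc was at 0.030 and 0.45 FPKM. Of 4 tested endothelial markers, 1 was higher and 1 lower, and of 4 tested smooth muscle and pericyte markers, 1 was higher and 2 lower. No lymphocyte or keratinocyte marker had enough counts to be tested. Of the lung epithelial markers 3 were tested and called higher, with Krt8 by far the most abundant, and the lineage genes Nkx2-1, Sftpb, Sftpc and Scgb1a1 had at most 0.06 FPKM in any library. The part of other cells in the factors' values was not tested, and in sorted bulk samples a change in the number of cells of a type and a change in RNA per cell cannot be told apart.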

How the data were processed

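RNA of sorted LLC-RFP cells was sequenced, with 3 libraries in each of the 2 groups. The authors deposited estimated counts, which need not be whole, and FPKM values per gene and transcript, with a whole-series FPKM table equal to the single files. The submitters' processing notes name HISAT, StringTie, Cufflinks and GATK and the build mm8, with no role or version. Positions and protein lengths are from GENCODE M21 (GRCm38) and promoters from RefSeq, for names and description only.

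Counts were rounded and tested with edgeR 4.0.16 in R 4.3.3 (TMM, its default filter, quasi-likelihood test, Benjamini-Hochberg adjustment over 13353 genes, threshold 0.05). The SE was derived from the fitted change and its F statistic. Medians over genes are on the same log2 scale. The length trend was removed with a lowess offset in each library. Depth ranged from 33476347 to 46189113 counts per library, and floors of 3 counts cover counting error only. The fits were tested on simulated data with known changes in a small share of genes. With 62.9% of tested genes called here, that does not give their error rate in these data. Alternatives were DESeq2 1.42.0, other scalings and filters, limma 3.58.1 on log2(FPKM + 1) and log2(FPKM + 0.1), a replicate block, the length trend, close libraries summed and each library left out. Replicates were compared by the median chi-square of their counts over that of sampling noise alone. It was 1.96 for LLC alone replicates 1 and 2, against 13.1 and 12.4 for their pairs with replicate 3. It was 1.68 for LLC with BMSCs replicates 2 and 3, against 4.93 and 4.85 for their pairs with replicate 1. The close pairs thus differed by more than sampling noise but less than the other pairs. They were kept separate in the main fit, and whether they are independent tumours is not known.

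The factors and lists were chosen with earlier results of these data known. The 10 factors and Cdh1, Cdh2, Vim and Fn1 are named whatever their values. From the other lists, the up to 4 called genes of largest change are named, provided that their groups stood apart in FPKM and their mean normalized count reached 100, with the most abundant gene, and from marker lists genes at 0 and the most abundant. Ptprc, Tcf4, Tcf12, Sox5, Sox6, Thy1, Fap, Cxcl12 and the lung lineage genes were named after their values were seen.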

Additional observations from a re-analysis of the deposited data

How the results depend on the processing

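The calls of Snai1, Snai2, Twist2, Zeb2, Prrx1 and Sox9 kept their direction and their side of the threshold in all 18 alternatives, while Twist1 lost its call in 12 and Zeb1 gained one with the replicate block. The log2 fold change of Foxc2 ranged from -0.016 (without LLC alone replicate 1) to 0.19 (without LLC alone replicate 3) when single libraries were left out, against 0.05. For the counts per list and the ratios, 342 alternative values stayed within the limit set for a move and 65 did not. A count per list cannot reverse, so that a reversal was possible for the ratios only, where 0 were seen. Depth limits Snai3, Cdh1 and 7 of 11 cartilage targets, which had too few counts for a test, while 11 of 22 epithelial targets and 10 of 14 epithelial factors were tested.

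Under an adjusted p below 0.001 and a log2 change of 1 or more in size, 6.81% of tested genes were called higher and 5.41% lower. The factors had 0 higher and 2 lower calls, close relatives 0 and 1, inducers 4 and 0, and corepressors 0 either way. Dimer partners had 0 higher and 3 lower calls, stability enzymes 0 either way, and epithelial factors 0 and 4. Epithelial targets had 3 higher and 0 lower calls, mesenchymal targets 9 and 0, and cartilage targets 0 and 1. With the length trend removed, with or without the block, inducers had 10 lower calls, dimer partners 5 with the block and 6 without, stability enzymes 5 and mesenchymal targets 0. With closely alike libraries summed, lower calls were 1 for close relatives, 3 for inducers, 2 for corepressors and 1 for mesenchymal targets, and dimer partners had 0 higher. By limma on log2(FPKM + 1) and on log2(FPKM + 0.1) alike, stability enzymes had 2 lower calls, epithelial factors 0 higher and 4 lower, epithelial targets 2 higher and 0 lower, mesenchymal targets 1 lower and cartilage targets 0 higher. By limma without a filter, lower calls were 1 for close relatives, 2 for stability enzymes, 2 for epithelial targets and 0 for mesenchymal targets. Upper-quartile scaling gave 3 lower stability enzymes, library size without TMM 1 lower mesenchymal target, no filter 2 higher cartilage targets, and at least 10 counts in every library 1 higher epithelial factor and 0 lower epithelial targets. Leaving out each library in turn, lower calls ranged from 1 to 2 for close relatives, 4 to 8 for inducers, 3 to 5 for dimer partners, 1 to 3 for stability enzymes and 1 to 2 for mesenchymal targets, and higher calls from 1 to 2 for epithelial factors and for cartilage targets. The highest values for inducers (8), dimer partners (5) and stability enzymes (3) were those without LLC alone replicate 3. Over all tested genes the counts shifted too. The main fit called 4210 of 13353 higher and 4183 lower, and the fit with the length trend removed 4758 and 4573. Leaving out each library in turn gave 3617 to 4736 higher and 3581 to 4539 lower. Closely alike libraries summed gave 3361 and 3305 of 13821, and limma on log2(FPKM + 1) 3579 and 3450 of 11010. The cause of these shifts was not tested.

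The replicate numbers did not pair the libraries, since same-numbered libraries had correlations of 0.076, -0.11 and 0.057 of their deviations from the group means, and not every library correlated best with its own number. With a replicate block, 4161 genes were called higher and 4058 lower, against 4210 and 4183 without it. In that fit Zeb1 was called (log2 fold change 0.23, adjusted p = 0.036, edgeR), Twist1 was not (adjusted p = 0.051), and mesenchymal targets had 1 lower call.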
